A study of Mus musculus with 2 samples.

Results

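Glucocorticoid signalling was followed through 8 genes in single-cell RNA libraries of the mouse inner ear: the receptors Nr3c1 and Nr3c2, the response genes Fkbp5, Tsc22d3, Sgk1 and Zbtb16, and the steroid-converting enzymes Hsd11b1 and Hsd11b2. Members were taken by gene symbol, and all 8 were present among the 32285 genes of both count matrices. In the AAV-Isl1 plus noise group, ears were given AAV-Isl1, a viral vector with the gene of the LIM homeodomain factor ISL1, before noise; its serotype and promoter are not given in the sources used here. The other, untreated ears of the same wild-type CBA/CaJ mice, under the same noise, formed the noise-only group. Mice were 4 to 6 weeks old, the noise was 105 dB at 1 to 20 kHz for 2 h, and tissue labelled as cochlear sensory epithelium was collected 2 days later. Each group was 1 library from 5 mice, which leaves no animal-to-animal spread and no test between groups. Both groups had noise and no ear was left unexposed, so the levels describe ears after noise and not a response to it.

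The AAV-Isl1 plus noise library held 40268563 UMIs (unique molecular identifiers, counts of captured RNA molecules) in 24209 barcodes, against 38330528 UMIs in 21068 barcodes for noise only. Both numbers of barcodes lie far above the 1600 cells loaded per the labels, and the libraries shared 145 barcodes. Many barcodes may therefore not be whole cells, which was not tested; barcodes are called cells below, and their counts and shares carry this limit. After filtering, 21769 and 18657 were kept, with median depths of 1084 and 1046 UMIs. Among hair cell-like cells, Isl1 stood at 556 CPM with AAV-Isl1 plus noise and at 48.7 CPM with noise only. The difference was not confined to hair cells, and cochlear non-sensory epithelium-like cells had 597 and 111 CPM. Among the 16 units compared below, Isl1 was lower with AAV-Isl1 plus noise only in neuron-like (257 and 303 CPM) and erythroid-like cells (14.9 and 21.2 CPM). Hair cells made up 1.52% and 0.488% of the kept cells, although the tissue was labelled sensory epithelium. The members were compared over 11 classes named by markers, written X-like, and 5 clusters left unnamed and called by their leading gene, each with at least 100 cells in both libraries. Some of the 16 units need a remark. Igkc cluster cells carried T cell and B cell markers together, the cochlear non-sensory epithelium-like class included cells with the otolithic gene Otol1, and the Them5, Slc6a13, Crhbp and Prg4 clusters had no name from the markers. CPM below means UMIs of the gene per 1000000 UMIs of the class, brackets hold 95% intervals, and these intervals cover counting error only.

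Glucocorticoids enter cells and bind the glucocorticoid receptor NR3C1, which is held in the cytoplasm by heat shock chaperones, or the mineralocorticoid receptor NR3C2, and the bound receptor acts in the nucleus on genes near glucocorticoid response elements. The enzyme HSD11B1 regenerates active corticosterone inside cells, whereas HSD11B2 inactivates it and so keeps it from the mineralocorticoid receptor in aldosterone target cells. Both receptors are known from the inner ear, and synthetic glucocorticoids are a standard treatment of sudden hearing loss.

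Nr3c1, the glucocorticoid receptor gene, was present in all 16 units. It was highest in endothelial-like cells, at 184 CPM [163 to 207] in the AAV-Isl1 plus noise library and 222 CPM [201 to 244] in the noise-only library. Slc6a13 cluster cells came next, at 153 and 179 CPM, followed by Schwann or satellite glia-like cells at 143 and 150.2 CPM and pericyte or smooth muscle-like cells at 140.2 and 149 CPM. Within the last of these classes, cluster 12, led by Rgs5, had 180 CPM [144 to 222] and 203 CPM [168 to 243]. These intervals overlapped those of endothelial-like cells. Cluster 19, led by Acta2, had 102 and 108 CPM. The fibrocyte or mesenchymal-like class, connective tissue cells of the spiral ligament and its surroundings, held 101 and 109 CPM. Neuron-like cells were lowest, at 27.6 CPM [24.4 to 31.1] and 25.1 CPM [21.7 to 28.9]. The endothelial level was therefore 6.69 times the neuronal one in the AAV-Isl1 plus noise library and 8.82 times in the noise-only library. Epithelial units were also low: cochlear non-sensory epithelium-like cells had 58.7 and 37.7 CPM, stria marginal cell-like cells 55.7 and 40.5 CPM, and Crhbp cluster cells 58.0 and 40.5 CPM. Those values were close to or below the 58.4 and 72.4 CPM of erythroid-like cells, used here as a guide to free RNA in the suspension, although erythroid precursors are known to use this receptor themselves. The order of the units was nearly the same in both libraries (Spearman correlation 0.968 over 16 units, which share library and depth), but in that order the intervals of neighbouring units overlapped for 14 of 15 pairs in the AAV-Isl1 plus noise library and for 15 of 15 in the noise-only library. Thinning to 1000 UMIs, here and below, used only cells with at least 1000 UMIs, 11949 of 21769 and 9780 of 18657 kept cells. After it, the receptor was seen in 16.9% of 657 and 19.5% of 769 endothelial-like cells. The whole class held 1249 and 1149 cells of median depth 1035 and 1292 UMIs. In erythroid-like cells, with median depths of 1949 and 2298 UMIs over the whole class, the thinned shares were 4.93% of 670 and 7.96% of 201. The unthinned shares, over all cells of each class, were 11.1% and 15.1% in erythroid-like cells and 19.9% and 27.2% in endothelial-like cells.

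Nr3c2, the mineralocorticoid receptor gene, had another profile. Prg4 cluster cells, named for the lubricin gene, had the highest level at 56.6 CPM [44.7 to 70.6] in the AAV-Isl1 plus noise library and 54.3 CPM [41.3 to 70.2] in the noise-only library. Osteoblast-like cells had 32.0 and 36.7 CPM, and fibrocyte or mesenchymal-like cells had 32.0 and 26.8 CPM. Endothelial-like cells had 31.3 and 27.6 CPM, and neuron-like cells had 28.8 and 30.7 CPM. Neurons thus had Nr3c2 above its median unit and Nr3c1 at its lowest. Stria marginal cell-like cells, the potassium-secreting epithelium that faces the endolymph, had 21.3 CPM [13.5 to 32.0] and 22.3 CPM [14.0 to 33.8], close to the median of the 16 units (22.3 and 22.0 CPM). The Igkc cluster (3.48 and 4.74 CPM, from 3 and 1 UMIs) and macrophage-like cells of the noise-only library (4.67 CPM, from 5 UMIs) lay below the erythroid-like level of 8.69 and 17.7 CPM. Only the Prg4 cluster of the AAV-Isl1 plus noise library was separated from the next unit by intervals that did not overlap.

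Hsd11b1, the corticosterone-regenerating enzyme, was concentrated in 1 of the 16 units; neutrophil or progenitor-like cells, with too few noise-only cells to compare, had 67.0 and 94.7 CPM. The fibrocyte or mesenchymal-like class held 164 of 284 UMIs in the AAV-Isl1 plus noise library and 131 of 195 in the noise-only library (57.7% and 67.2%), at 38.9 and 24.3 CPM. Within this class, cluster 8, led by Slc4a11 and also carrying the fibrocyte marker Otos, had 87.3 CPM [72.7 to 104] and 90.3 CPM [72.4 to 111]. Cluster 4, led by Dpep1, had 19.8 and 20.4 CPM, cluster 22, led by Fat2, had 16.7 and 13.6 CPM, cluster 21, led by Ccl11, had 4 and 0 UMIs (8.94 CPM in the AAV-Isl1 plus noise library), and cluster 9, led by Emilin2, had 0 and 3 UMIs in all. The Igkc cluster followed at 18.6 and 18.9 CPM, from 16 and 4 UMIs. The other 14 units had at most 4.53 and 8.96 CPM, both in the Them5 cluster, and erythroid-like cells had 2.48 and 1.77 CPM. Hsd11b1 lies on GRCm38 chromosome 1 from 193221634 to 193264075, minus strand, where Lamb3 and 4930570N18Rik overlap its 3′ part on the other strand and Gm38118 lies on its own strand.

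Hsd11b2, the corticosterone-inactivating enzyme, was close to absent at this depth. It had 11 UMIs in the AAV-Isl1 plus noise library and 5 in the noise-only library, of which 7 and 3 lay in neuron-like cells (0.718 and 0.391 CPM). No UMI was seen in 12 and 14 of the 16 units. In Schwann or satellite glia-like cells, 0 counts allow up to 0.894 and 0.571 CPM.

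**Figure D1:**
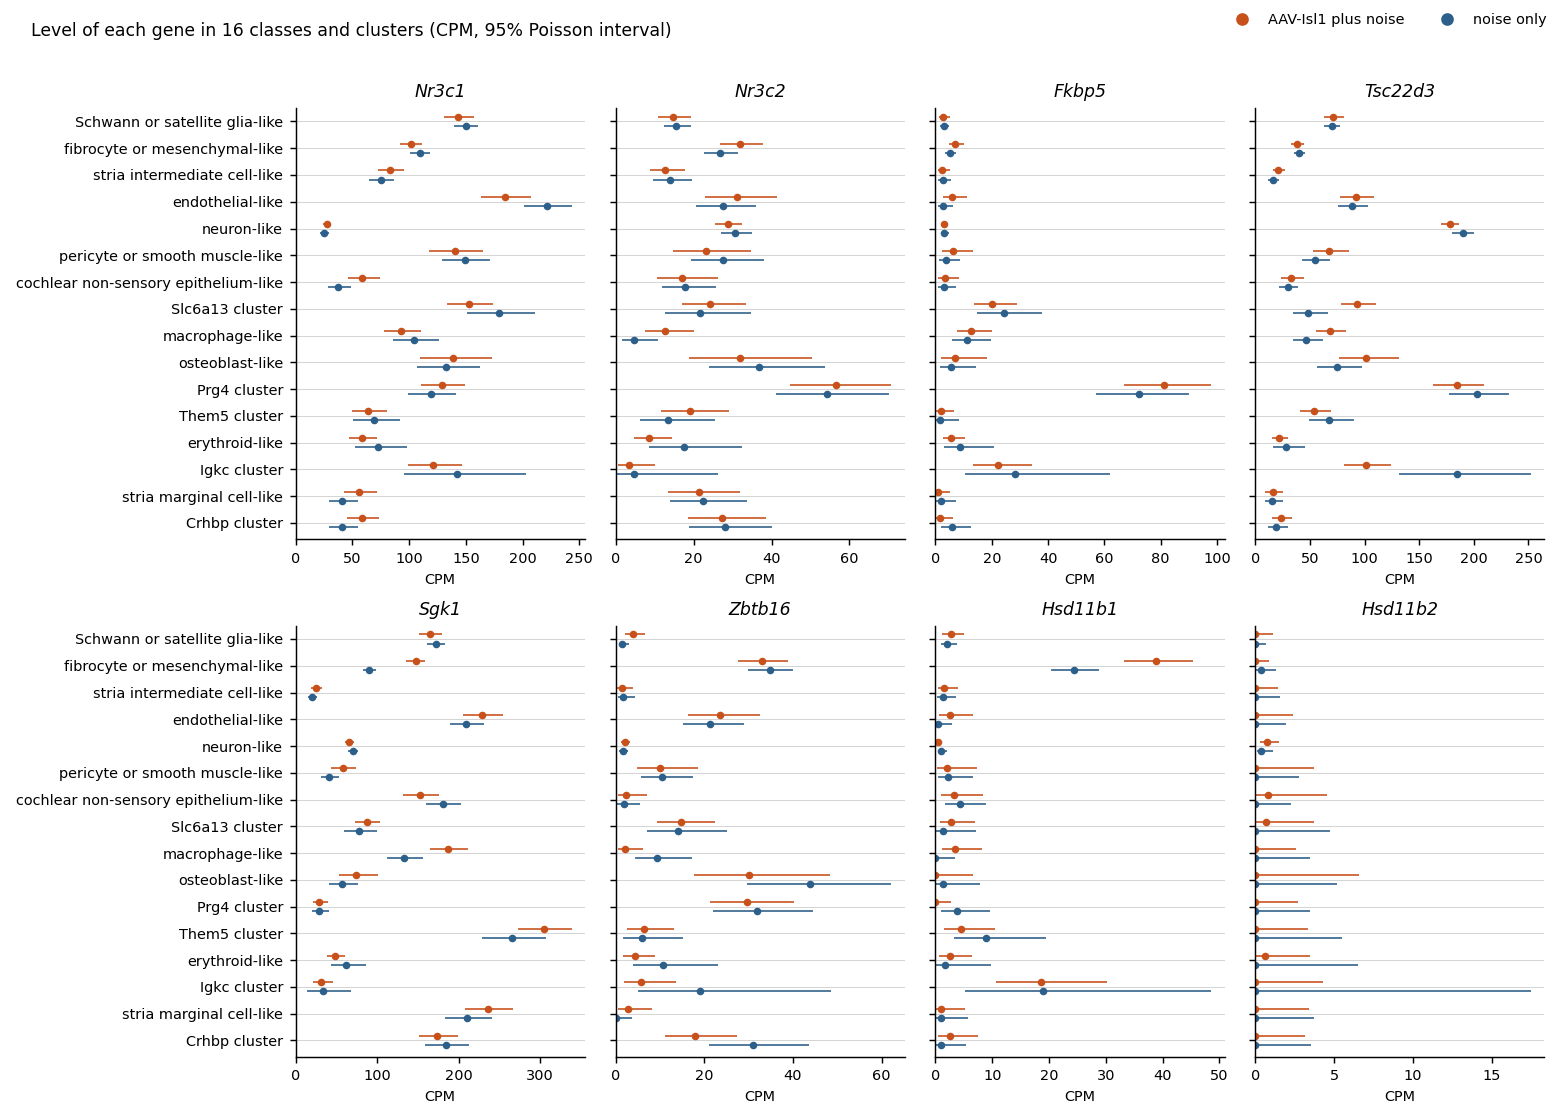
Level of each of the 8 genes (x axis, CPM, with its own scale per gene) in the 16 compared classes and clusters (rows), in the AAV-Isl1 plus noise library (orange, upper point) and the noise-only library (blue, lower point). Bars are 95% Poisson intervals for counting error; Nr3c1 peaked in endothelial-like cells at 184 and 222 CPM and Fkbp5 in the Prg4 cluster at 81.3 and 72.1 CPM.

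Of the response genes, Fkbp5 was concentrated in the Prg4 cluster. It encodes FKBP51, a co-chaperone that lowers the affinity of the receptor for its ligand and is strongly induced by glucocorticoids. Prg4 cluster cells had 81.3 CPM [66.9 to 97.8] and 72.1 CPM [56.9 to 90.2] and held 37.1% and 34.7% of all Fkbp5 UMIs (112 of 302 and 77 of 222). The Igkc cluster had 22.1 and 28.4 CPM, the Slc6a13 cluster 20.2 and 24.3 CPM, and macrophage-like cells 12.7 and 11.2 CPM. The other 12 units had between 0.928 and 7.12 CPM in the AAV-Isl1 plus noise library and between 1.49 and 8.83 CPM in the noise-only library, near the erythroid-like level of 5.59 and 8.83 CPM. In the fibrocyte or mesenchymal-like class, cluster 22 had 20.9 CPM [11.7 to 34.5] and 11.3 CPM [5.42 to 20.8], from 15 and 10 UMIs. The other clusters of that class were lower in both libraries. Thinned to 1000 UMIs, 7.57% of 581 and 5.52% of 362 Prg4 cluster cells had a UMI, against 0.299% of 670 and 0.995% of 201 erythroid-like cells. Hair cell-like cells had 0 UMIs in both libraries, which allows up to 7.58 and 18.3 CPM. The gene lies on GRCm38 chromosome 17 from 28399094 to 28517527, minus strand.

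Tsc22d3 encodes GILZ, a leucine zipper protein that mediates anti-inflammatory actions of glucocorticoids. Its level was highest in the Prg4 cluster, at 185 CPM [163 to 209] and 203 CPM [177 to 232], and in neuron-like cells, at 178 CPM [170 to 187] and 190.0 CPM [180 to 200]. These neighbours in the order overlapped in both libraries. The Igkc cluster followed in the noise-only library with 185 CPM, and in the AAV-Isl1 plus noise library it had 101 CPM. Endothelial-like cells had 91.8 and 88.5 CPM and Schwann or satellite glia-like cells 71.5 and 70.3 CPM. Stria marginal cell-like cells were lowest, at 15.8 CPM [9.19 to 25.2] and 15.2 CPM [8.51 to 25.1], below the erythroid-like 21.7 and 28.3 CPM. In neuron-like cells the high level of Tsc22d3 thus went with the lowest level of Nr3c1. Both neuron clusters had it, with 167 and 178 CPM in cluster 7 (led by Pcp4) and 206 and 214 CPM in cluster 20 (led by Lhx1os). Because neuron-like cells were deep (median 6533 and 10271 UMIs), a Tsc22d3 UMI was seen in 61.9% and 79.0% of them, but in 16.9% of 1437 and 18.9% of 757 after thinning, near the 15.8% of 581 and 17.4% of 362 in the Prg4 cluster. The gene lies on GRCm38 chromosome X from 140539528 to 140600659, minus strand.

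Sgk1 encodes a serum- and glucocorticoid-regulated kinase that raises sodium and potassium transport in epithelia, partly by holding back the ubiquitin ligase NEDD4L, and it is a target of both receptors. One of its annotated starts carries an exact palindromic response element, and the 300 bases around it are shown because no other member window held one. They run from 250 bases before to 50 bases from the start of transcription at GRCm38.p6 chr10:21993640-21993939, plus strand (RefSeq). Capitals mark the palindrome.
Sgk1: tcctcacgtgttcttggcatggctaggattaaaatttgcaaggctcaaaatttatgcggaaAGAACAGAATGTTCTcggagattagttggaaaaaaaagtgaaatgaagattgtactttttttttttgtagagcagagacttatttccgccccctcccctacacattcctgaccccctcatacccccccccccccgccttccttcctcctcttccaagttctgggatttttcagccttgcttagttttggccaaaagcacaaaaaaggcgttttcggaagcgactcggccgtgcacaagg
The element searched was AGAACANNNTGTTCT, which reads the same on both strands, and it spans bases 62 to 76 of the window, 174 bases before the start. RefSeq windows were found for 5 of the 8 members (12 windows, of which Sgk1 has 6). This exact palindrome was in 1 of those 12 and in 3 of 32851 windows of the same length over all genes used (0.00913%). Its half-site AGAACA, on either strand and also part of the palindrome, was in 4 of the 12 member windows (Sgk1 and Tsc22d3) and in 19.0% of all windows. The match is a description of letters, and counts from the 3′ ends of transcripts do not show which start was used.

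The Sgk1 level was highest in the Them5 cluster, at 304 CPM [273 to 339] in the AAV-Isl1 plus noise library and 266 CPM [228 to 308] in the noise-only library. Stria marginal cell-like cells followed at 236 and 211 CPM and endothelial-like cells at 229 and 209.7 CPM. Crhbp cluster cells had 174 and 184 CPM, Schwann or satellite glia-like cells 165 and 172 CPM, and cochlear non-sensory epithelium-like cells 153 and 181 CPM. Macrophage-like cells had 187 and 133 CPM, and the fibrocyte or mesenchymal-like class 147 and 89.9 CPM. Within that class, cluster 8, led by Slc4a11, had 299 CPM [272 to 329] and 276 CPM [244 to 311]. These intervals overlapped those of the Them5 cluster. Stria intermediate cell-like cells, the pigmented cells of the stria vascularis, were lowest at 25.0 CPM [19.3 to 31.9] and 19.8 CPM [14.5 to 26.3]. The Prg4 cluster, where Fkbp5, Tsc22d3 and Nr3c2 were highest, had 29.0 and 29.0 CPM of Sgk1, below the erythroid-like 48.4 and 61.8 CPM. Within the stria vascularis, marginal cells thus had high Sgk1 with low Tsc22d3 and low Nr3c1, while intermediate cells had low Sgk1 and low Tsc22d3 with 83.4 and 74.8 CPM of Nr3c1. Thinned to 1000 UMIs, Sgk1 was seen in 25.7% of 604 and 20.3% of 305 Them5 cluster cells and in 3.58% of 670 and 7.46% of 201 erythroid-like cells.

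Zbtb16, the gene of the zinc finger repressor PLZF and a glucocorticoid-induced gene, had the same 3 units at the top of its order in both libraries. Fibrocyte or mesenchymal-like cells had 33.0 CPM [27.7 to 38.9] and 34.7 CPM [29.9 to 40.1], osteoblast-like cells 30.2 CPM [17.6 to 48.3] and 43.7 CPM [29.7 to 62.1], and the Prg4 cluster 29.7 and 31.9 CPM. Endothelial-like cells had 23.5 CPM [16.4 to 32.5] and 21.3 CPM [15.3 to 28.9]. The Crhbp cluster had 17.9 CPM [11.1 to 27.4] and 30.9 CPM [21.1 to 43.6]. Intervals of neighbouring units overlapped throughout the order in both libraries, so the top 3 units could not be ordered or set apart from the next ones. Neuron-like cells (2.05 and 1.56 CPM) and stria intermediate cell-like cells (1.54 and 1.68 CPM) were lower than erythroid-like cells (4.35 and 10.6 CPM). Among the fibrocyte or mesenchymal-like clusters the level ran between 23.6 and 44.6 CPM in the AAV-Isl1 plus noise library and between 14.4 and 47.4 CPM in the noise-only library, and cluster 8 was the lowest in both. Cluster 8, where Hsd11b1 and Sgk1 were highest within the class, had 23.6 CPM [16.3 to 32.9] and 14.4 CPM [7.85 to 24.1] of Zbtb16. With AAV-Isl1 plus noise its interval overlapped those of all other clusters of the class. With noise only it overlapped that of cluster 9 (30.0 CPM [21.7 to 40.4]), so its lowest place was not resolved. The gene lies on GRCm38 chromosome 9 from 48654297 to 48836222, minus strand.

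The genes closest to each member in profile were taken by the Pearson correlation of log2(CPM + 10) over the 16 units of the noise-only library among 10651 genes, a description of points that share library and depth. They were Lrch3 (0.89), Elk4 (0.87) and Klf2 (0.86) for Nr3c1, and Il6st (0.86), Nfe2l1 (0.85) and Ppp1r2 (0.84) for Nr3c2. For Fkbp5 they were Nt5e (0.85), Osgin2 (0.81) and Fgl2 (0.81), and for Tsc22d3 they were Glcci1 (0.90), Rcl1 (0.83) and Mycbp2 (0.83). Gata2 (0.81), Pxn (0.76) and P2ry2 (0.75) came closest to Sgk1, and Flrt2 (0.88), Fam71a (0.84) and Plpp5 (0.83) to Zbtb16. In the AAV-Isl1 plus noise library the same correlations were between 0.71 and 0.93, except for Rcl1 with Tsc22d3 (0.28) and Plpp5 with Zbtb16 (0.56). Glcci1, a gene first described as a glucocorticoid-induced transcript, was thus nearest to Tsc22d3 and had 0.81 in the AAV-Isl1 plus noise library.

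Ratios of AAV-Isl1 plus noise over noise only were then taken for each member in each unit. A ratio was called past the fold where it was at least 1.5-fold in either direction, its interval excluded 1 and the gene had at least 20 UMIs. Of 128 pairs of a member and a unit, 82 had that many UMIs. Their ratios were balanced, with 41 above 1 and 41 below 1 and a median log2 ratio of 0.01. The interval excluded 1 in 8 pairs, and 5 pairs were past the fold.

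Each count of members was set beside the share of all measured genes past the fold. Over all kept cells 0 of 7 measured members were past the fold, where 8.35% of all measured genes were. After thinning to 1000 UMIs, 2 of 7 measured members were past it, Fkbp5 (1.59 [1.15 to 2.23]) and Hsd11b1 (1.53 [1.15 to 2.05]). The share of all genes past the fold after thinning is not given here, and the 8.35% is no background for this count. In the fibrocyte or mesenchymal-like class 2 of 7 members were past it, Sgk1 and Hsd11b1, with 7.61% of all genes. Cochlear non-sensory epithelium-like cells had 1 of 4, Nr3c1, with 11.6% of all genes. Tsc22d3 was past the fold in the Slc6a13 cluster (1 of 6, with 7.85% of all genes) and in the Igkc cluster (1 of 5, with 10.6%). No member was past it elsewhere. That was 0 of 7 in Schwann or satellite glia-like cells (5.6% of all genes), 0 of 4 in stria intermediate cell-like cells (4.77%), 0 of 5 in endothelial-like cells (7.77%), 0 of 6 in neuron-like cells (4.51%) and 0 of 5 in pericyte or smooth muscle-like cells (7.62%). It was likewise 0 of 5 in macrophage-like cells (7.66%), 0 of 5 in osteoblast-like cells (7.06%), 0 of 6 in the Prg4 cluster (4.16%) and 0 of 4 in the Them5 cluster (3.9%). Erythroid-like cells had 0 of 4 (13.7%), stria marginal cell-like cells 0 of 4 (5.74%) and the Crhbp cluster 0 of 5 (9.48%).

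**Figure D2:**
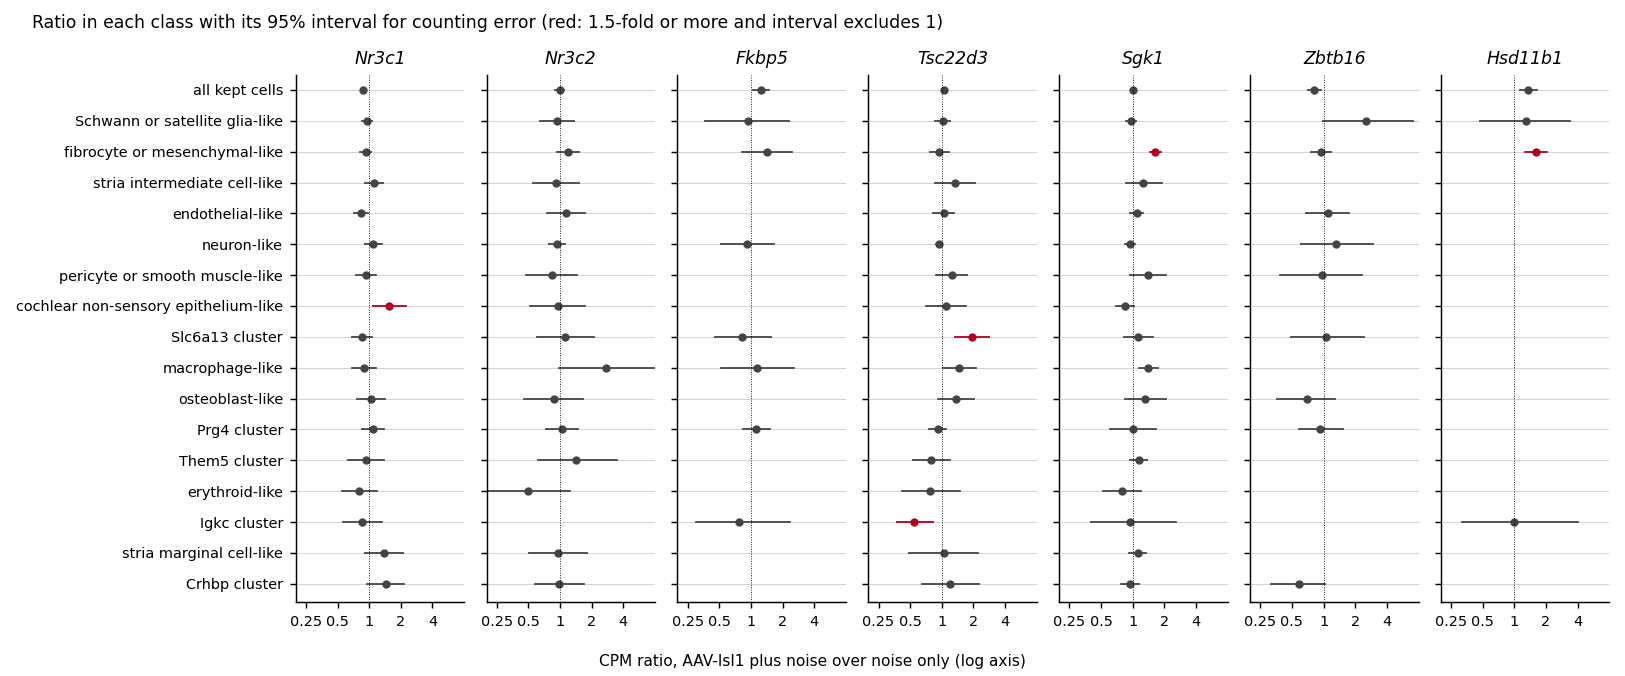
Ratio of CPM, AAV-Isl1 plus noise over noise only (x axis, log scale), for 7 genes over all kept cells and in the 16 units (rows), drawn where a gene had at least 20 UMIs. Points are ratios and bars 95% intervals for counting error, with the Nr3c2 bar of macrophage-like cells (up to 9.34) running past the axis; the 5 red ratios were past 1.5-fold, and Nr3c2, Fkbp5 and Zbtb16 had none.

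The fibrocyte or mesenchymal-like class, which held 2 of the ratios past the fold, also differed in makeup between libraries. Sgk1 had 147 CPM in the AAV-Isl1 plus noise library and 89.9 CPM in the noise-only library, a ratio of 1.64 [1.45 to 1.85], and Hsd11b1 had 38.9 and 24.3 CPM, a ratio of 1.60 [1.26 to 2.03]. Cluster 8, in which both genes were highest, made up 960 of 3104 cells (30.9%) and 538 of 3178 cells (16.9%) of the class, and cluster 9, in which both were low, made up 14.8% and 29.9%. Within cluster 8, Sgk1 had 299 and 276 CPM (1.08 [0.929 to 1.27]) and Hsd11b1 had 87.3 and 90.3 CPM (0.967 [0.730 to 1.28]). In the other 4 clusters the Sgk1 ratio was 1.05 to 1.52, and every interval included 1. With the 5 clusters weighted equally the ratios were 1.17 for Sgk1 and 1.05 for Hsd11b1. With coarser clusters (resolution 0.5) only a cluster led by Slc4a11, with 1294 and 815 cells, kept the name of this class. The cluster led by Emilin2 was then unnamed. In that smaller and different set of cells the ratios were 1.36 [1.18 to 1.58] for Sgk1 and 1.18 [0.904 to 1.54] for Hsd11b1, neither past the fold.

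**Figure D3:**
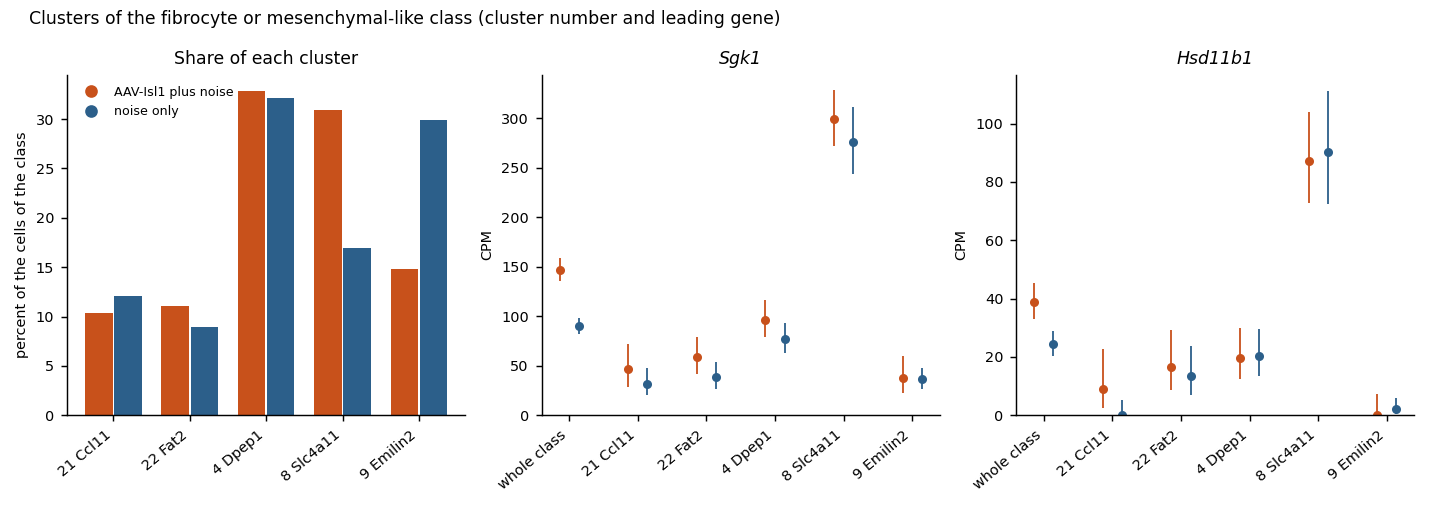
Left, share of the cells of the fibrocyte or mesenchymal-like class in each of its 5 clusters (y axis, percent); middle and right, Sgk1 and Hsd11b1 levels (y axis, CPM, 95% Poisson intervals) in the whole class and in each cluster, AAV-Isl1 plus noise in orange left of noise only in blue. The whole-class points lie apart (147 and 89.9 CPM for Sgk1), whereas the points of cluster 8, which held 30.9% and 16.9% of the cells, overlap.

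Tsc22d3 had 93.5 CPM [78.6 to 110] in Slc6a13 cluster cells of the AAV-Isl1 plus noise library and 48.6 CPM [34.4 to 66.7] in those of the noise-only library, a ratio of 1.92 [1.34 to 2.83] from 139 and 38 UMIs. Under a stricter cell filter (500 genes or more, 10% mitochondrial UMIs or fewer) the ratio was 1.43 [0.954 to 2.18], and with cells thinned to 1000 UMIs it was 1.64 [0.986 to 2.86]. The median depths of this cluster were 1054 and 1622 UMIs, and the part of depth in the ratio was not tested. In the Igkc cluster Tsc22d3 had 101 CPM [80.9 to 125] and 185 CPM [131 to 252], a ratio of 0.547 [0.371 to 0.820] from 87 and 39 UMIs. That interval reached 1.06 with the stricter cell filter and 1.00 without the 5 cells with the most Tsc22d3 UMIs in each library. The Igkc cluster mixed T cell and B cell markers and held 746 and 198 cells, and a shift in its makeup was not tested.

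Macrophage-like cells showed the response genes Sgk1 and Tsc22d3 both somewhat higher in the AAV-Isl1 plus noise library, below the fold. Sgk1 had 187 CPM [165 to 211] and 133 CPM [112 to 156], a ratio of 1.41 [1.15 to 1.74], which was 1.35 to 1.63 under every alternative tried with an interval above 1. Tsc22d3 had 68.3 and 46.7 CPM, a ratio of 1.46 [1.03 to 2.10], but 1.02 [0.591 to 1.81] after thinning, 1.29 [0.881 to 1.92] in cells with at least 1000 UMIs and 1.39 [0.950 to 2.06] under the stricter filter. The list of other glucocorticoid response genes, described below, had 6 of 19 measured genes above 1 in these cells (median log2 ratio -0.12). Of all genes there, 52.2% were above 1. From the list, 2 were past the fold upward and 0 downward, with 7.66% of all genes past it. Fkbp5 had 12.7 and 11.2 CPM, a ratio of 1.13 [0.515 to 2.57]. Zbtb16 had 3 and 10 UMIs in these cells (2.11 and 9.35 CPM), a ratio of 0.226 [0.0399 to 0.877]. The receptor Nr3c1 had 92.9 and 104.7 CPM, a ratio of 0.887 [0.685 to 1.15].

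In the cochlear non-sensory epithelium-like class Nr3c1 stood at 58.7 CPM [46.0 to 74.0] with AAV-Isl1 plus noise and at 37.7 CPM [28.8 to 48.4] with noise only, a ratio of 1.56 [1.09 to 2.23] from 72 and 61 UMIs. With doublets kept the ratio was 1.44 [1.03 to 2.02], and after thinning it was 1.08 [0.584 to 1.96], with 4.45% of 472 and 4.17% of 623 cells carrying a UMI. The level was near that of erythroid-like cells in the AAV-Isl1 plus noise library and below it in the noise-only library, and the part of free RNA in the ratio was not tested. In endothelial-like cells, where the receptor was highest, the ratio was 0.832 [0.713 to 0.969], below the 1.5-fold limit.

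Over all kept cells, Nr3c1 had 83.9 CPM in the AAV-Isl1 plus noise library and 95.4 CPM in the noise-only library, a ratio of 0.880 [0.837 to 0.925]. Nr3c2 had 23.6 and 23.9 CPM (0.988 [0.896 to 1.09]), Tsc22d3 91.0 and 86.9 CPM (1.05 [0.996 to 1.10]) and Sgk1 110.5 and 109 CPM (1.01 [0.965 to 1.06]). Fkbp5 had 8.36 and 6.65 CPM (1.26 [1.05 to 1.501]), Hsd11b1 7.86 and 5.84 CPM (1.34 [1.12 to 1.62]) and Zbtb16 9.91 and 12.2 CPM (0.814 [0.704 to 0.941]). The libraries also differed in which cells they held. The Prg4 cluster, with 37.1% and 34.7% of the Fkbp5 UMIs, had 790 and 405 cells, which held 1378320 of 36130202 and 1067433 of 33366199 kept UMIs. Schwann or satellite glia-like cells, which are rich in Nr3c1, were 4449 and 6572, with 3354598 and 5251891 UMIs. The part of this makeup in the ratios was not tested. With every unit weighted equally, the ratio was 0.964 for Nr3c1 and 1.00 for Fkbp5, whereas thinning moved the Fkbp5 ratio the other way, to 1.59. Equal weights leave the makeup within each unit in place.

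The surrounding pathway was read over all kept cells through 7 lists. As background, 46.2% of all measured genes had a ratio above 1 and 8.35% were past the fold in either direction. The median log2 ratio of all genes was -0.02. Of the receptor chaperones and folding partners, 6 of 12 were above 1 and 0 past the fold (median log2 ratio 0.01). The HSP90 gene Hsp90aa1 had 1241 and 1115 CPM (1.11 [1.10 to 1.13]), Hsp90ab1 1.04 [1.03 to 1.05] and the constitutive HSP70 gene Hspa8 0.993 [0.975 to 1.01]. Of the coregulators, which join the receptor on DNA, 3 of 11 were above 1 and 0 past the fold (median -0.03), with ratios of 1.00 for the corepressor gene Ncor1, 0.950 for the acetyltransferase gene Crebbp and 0.936 for Nrip1. Of the genes of steroid synthesis, activation and transport, 1 of 8 was above 1 and 0 past the fold (median -0.19). Hsd17b12 had a ratio of 1.03 and Srd5a3 0.936. Abcb1a, a drug and steroid exporter of the blood-labyrinth barrier, had 53.5 and 67.8 CPM (0.789 [0.742 to 0.839]) and was highest in endothelial-like cells, at 846 and 932 CPM. Of the mineralocorticoid and SGK1 effector genes, 5 of 13 were above 1 and 0 past the fold (median -0.05), with ratios of 1.05 for the sodium pump subunit gene Atp1b1 and 0.874 for the SGK1 substrate gene Ndrg1. Of the paralogs of members, 5 of 7 were above 1 and 0 past the fold (median 0.04), with Tsc22d1 at 0.909, Tsc22d4 at 1.03 and Fkbp4 at 1.03.

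Other glucocorticoid response genes were mostly below 1, with 5 of 28 above it (median log2 ratio -0.16), 2 past the fold upward and 0 downward. Of all measured genes, 46.2% were above 1 and 8.35% past the fold in either direction, so the count past the fold was near that of all genes. With every unit weighted equally, 15 of 28 were above 1. The metallothionein gene Mt1 had 1828 and 1881 CPM (0.972 [0.961 to 0.982]), the glutamine synthetase gene Glul 0.909 [0.891 to 0.929], and Zfp36, whose product destabilises cytokine mRNAs, 418 and 565 CPM (0.740 [0.724 to 0.756]). Past the fold were the lipocalin gene Lcn2, at 256 and 35.2 CPM (7.28 [6.85 to 7.74]), and the decoy receptor gene Il1r2, at 3.79 and 1.08 CPM (3.51 [2.42 to 5.22]). Neutrophil or progenitor-like cells, which numbered 460 and 24, held 94.8% and 73.1% of the Lcn2 UMIs and 72.3% and 36.1% of the Il1r2 UMIs.

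Pro-inflammatory genes that glucocorticoids are known to lower were split over all kept cells, with 5 of 13 above 1 (median log2 ratio -0.11) and 4 past the fold. Of all measured genes, 46.2% were above 1 and 8.35% past the fold in either direction. Il1b (1.78 [1.68 to 1.88]), Cxcl10 (1.96 [1.83 to 2.11]) and Mmp9 (8.31 [6.12 to 11.5]) were higher in the AAV-Isl1 plus noise library, and Cxcl1 was lower (0.633 [0.6001 to 0.668]). Ccl2 had a ratio of 1.03 and Cxcl2 0.928. Neutrophil or progenitor-like cells held 85.7% and 43.5% of the Mmp9 UMIs. In macrophage-like cells Sgk1 had a ratio of 1.41, and 6 of 19 other glucocorticoid response genes were above 1. The chemokine genes Cxcl1 (599 and 1358 CPM, 0.441 [0.405 to 0.480]), Cxcl2 (7558 and 11978 CPM, 0.631 [0.615 to 0.647]) and Ccl2 (1705 and 2241 CPM, 0.761 [0.719 to 0.805]) were lower there in the AAV-Isl1 plus noise library. Il1b was not lower (1960 and 1699 CPM, 1.15 [1.09 to 1.22]). Of the list, 4 of 11 measured genes were above 1 in macrophage-like cells (52.2% of all genes there), with Vcam1 past the fold upward and Tnf, Cxcl1, Cxcl2 and Icam1 downward (median log2 ratio -0.39), where 7.66% of all genes were past it in either direction. In most other units the list lay the other way, and its median was above 0 in 13 of 16. Among those 13, the Them5 cluster and stria marginal cell-like cells had 2 measured genes each. Cochlear non-sensory epithelium-like cells and the Crhbp cluster had 3 each. The list had 8 of 8 measured genes above 1 in stria intermediate cell-like cells (median log2 ratio 2.61, 6 past the fold upward), 7 of 7 in neuron-like cells (2.22, 5 past upward), 7 of 7 in osteoblast-like cells (0.77, 3 past upward) and 6 of 7 in Schwann or satellite glia-like cells (0.63, 4 past upward). In the same order of units, 53.2%, 52.0%, 51.0% and 52.5% of all genes were above 1. Past the fold in either direction were 4.77%, 4.51%, 7.06% and 5.6% of all genes. The level of Cxcl2 was 27.7 and 1.04 CPM in neuron-like cells and 126 and 17.7 CPM in stria intermediate cell-like cells, and it was 244.6 and 15.9 CPM in erythroid-like cells. The part of free RNA in these differences was not tested. Macrophage-like cells were singled out here after their values were seen.

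**Figure D4:**
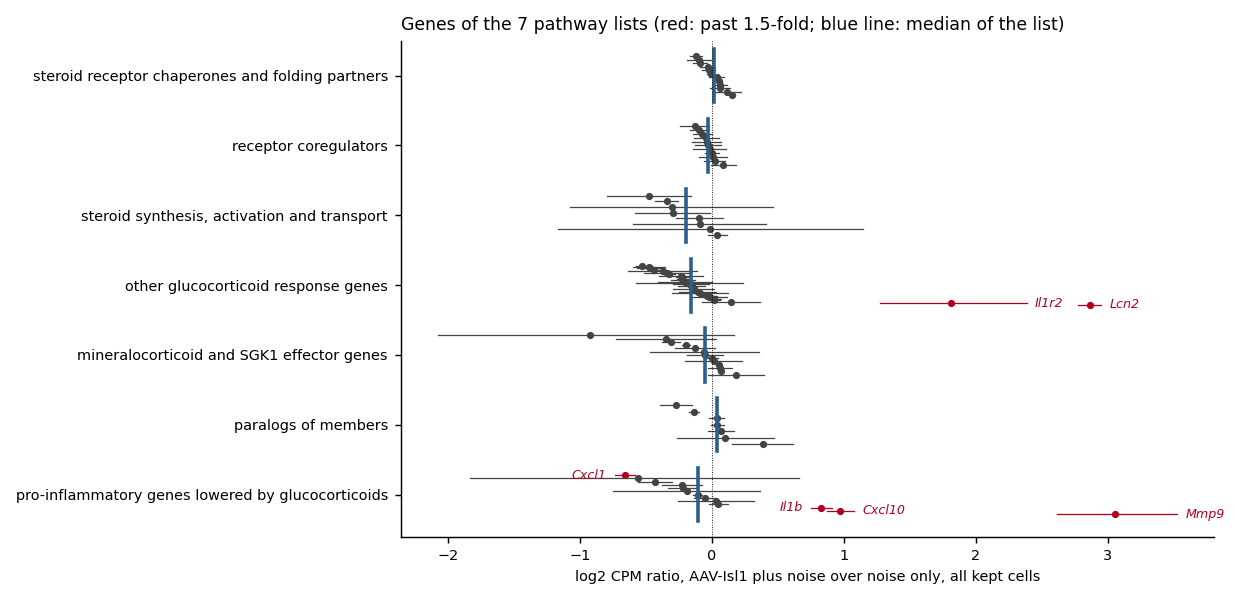
Log2 ratio of CPM over all kept cells, AAV-Isl1 plus noise over noise only (x axis), for each measured gene of 7 pathway lists (rows), with 95% intervals for counting error. Blue lines are list medians, between -0.19 and 0.04, and the 6 red genes were past 1.5-fold, as were 8.35% of all measured genes.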

How the data were processed

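Both deposited matrices are unnormalised UMI counts (genes by barcodes) from 10x Genomics 3′ v3.1 libraries, per the labels. The submitters' processing notes name Cell Ranger 5.0, STAR, Seurat 3.2.2 and mm10 (GRCm38); per the file headers the version was Cell Ranger 5.0.1. A barcode was used if it had 300 genes or more and no more than 20% mitochondrial UMIs (22672 AAV-Isl1 plus noise, 19953 noise only). Scrublet, run per library in scanpy 1.11.5 (expected doublet rate 0.06), set a threshold that called 0 and 1296 doublets. The noise-only threshold, 0.194, was therefore applied to each library and took out 903 (3.98%) and 1296 (6.50%). Under 1000 UMIs were found in 45.1% and 47.6% of what remained. Those cells were left out wherever cells were thinned to 1000 UMIs, so thinned values differ in cell set as well as in depth.

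Clustering was joint, with no batch correction (3135 variable genes, 50 components, 15 neighbours, leidenalg 0.10.2 at resolution 1.0, 29 clusters). A name needed at least 3 fixed markers, each 4-fold above other cells and in 10% of the cluster, with 1 among the top 10 genes or 6 in all, and no other class with more among the top 10. Clusters led by genes of 2 classes stayed unnamed; this rule was settled after clusters were seen. The Schwann or satellite glia-like class joined 3 clusters, the fibrocyte or mesenchymal-like class 5, and the neuron-like and pericyte or smooth muscle-like classes 2 each.

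UMIs were summed per unit and library. CPM have exact Poisson intervals, ratios exact conditional binomial intervals (scipy 1.17.1) and shares Clopper-Pearson intervals, at 95%, and a count of 0 allows 3. The ratio calculation was tested on simulated data. Members and lists (7 lists, 100 entries) were chosen with earlier results of these data known. All members are named, with the 3 list genes of most UMIs, list genes past 1.5-fold and the 3 genes nearest in profile (200 UMIs or more in the noise-only library), except 1 list gene that is not reported here. Coordinates come from GENCODE vM21 and promoter windows from RefSeq, without those of 1 chromosome.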

Additional observations from a re-analysis of the deposited data

Results flagged for a closer look

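Nr3c1 had intervals on opposite sides of 1 in different cells: the ratio of AAV-Isl1 plus noise over noise only was 1.56 for the cochlear non-sensory epithelium-like class and 0.832 in endothelial-like cells. The difference between these classes was not tested. Tsc22d3 likewise had ratios of 1.92 in the Slc6a13 cluster and 1.46 in macrophage-like cells, but 0.547 in the Igkc cluster, and this difference was not tested either.

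Some units were left out of the comparison because a library had fewer than 100 cells, and 4 of these 5 had a member with at least 20 UMIs in a library and an interval wholly above that of erythroid-like cells. Nr3c1 had 159 and 176 CPM in the Klk6 cluster (140 AAV-Isl1 plus noise and 91 noise-only cells). Tsc22d3 had 132 CPM in the Hbb-bt cluster of the AAV-Isl1 plus noise library (53 cells) and 131 CPM in the noise-only library (7 cells). The leading genes of this unnamed cluster mixed hemoglobin genes with the neuronal genes Kcnc2 and Kcnb2. For comparison, Tsc22d3 had 178 and 190 CPM in neuron-like cells and 21.7 and 28.3 CPM in erythroid-like cells. In hair cell-like cells Sgk1 had 164 CPM [127 to 209] with AAV-Isl1 plus noise (65 UMIs) and 109.7 CPM [65.0 to 173] with noise only (18 UMIs), a ratio of 1.497 [0.877 to 2.68]. Hsd11b1 had 67.0 CPM [50.1 to 87.9] in neutrophil or progenitor-like cells of the AAV-Isl1 plus noise library (52 of its 284 UMIs) and 94.7 CPM [34.8 to 206] in those of the noise-only library (6 UMIs), beside the fibrocyte clusters described above. The fifth, ciliated or middle ear epithelium-like cells (29 and 48), had 0 and 5 Hsd11b1 UMIs, which is 60.7 CPM [19.7 to 142] in the noise-only library, and 1 and 6 Tsc22d3 UMIs.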

How the results depend on the processing

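No paired analysis was possible because there was 1 library per group. Of the ratios in single units, 740 of 761 values under an alternative lay inside the 95% interval of the reported value, over all kept cells 56 of 63 did, and no ratio past the fold changed direction under an alternative tried. With units weighted equally the ratio was 0.964 for Nr3c1, 1.00 for Fkbp5, 0.989 for Tsc22d3 and 1.10 for Sgk1, and with cells thinned to 1000 UMIs it was 1.59 for Fkbp5, 1.15 for Sgk1 and 0.697 for Zbtb16. Of the steroid synthesis, activation and transport list, 4 genes were above 1 with the stricter cell filter, 3 with doublets kept, 2 with at least 1000 UMIs per cell, 4 after thinning and 2 after centring. For other response genes this count was 15 with equal weights, and for pro-inflammatory genes it was 3 with at least 1000 UMIs per cell and 8 after thinning. Noise-only levels moved to 55.2 CPM for Fkbp5 in the Prg4 cluster and 219.7 CPM for Sgk1 in the Them5 cluster after thinning, and to 27.5 CPM for Zbtb16 in osteoblast-like cells with at least 1000 UMIs. The cause of these moves was not tested. Leaving out shared barcodes (131 and 129 of the kept cells) and weighting clusters equally were chosen after seeing the data. Depth limits Hsd11b2 (16 UMIs) and Fkbp5, Zbtb16 and Hsd11b1 outside their main cells.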
